A study of Rattus norvegicus with 3 samples.

Results

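In the rat carotid artery after balloon injury, 76 genes lay on opposite sides of their uninjured level at day 7 and at day 21. They were chosen from 5166 named genes whose probes were well above background on all 3 arrays, as those at least 2-fold higher than uninjured on 1 injured array and at least 2-fold lower on the other. Of these, 66 (1.28% of the genes measured) were higher at day 7 and lower at day 21, and 10 (0.194%) were lower at day 7 and higher at day 21. The same signals chose the genes and describe them here, so the ratios are a description with no test. The groups were an uninjured whole common carotid artery, an artery 7 days after balloon injury and an artery 21 days after it, all from male Wistar rats with no other treatment named. In this model a balloon is inflated and drawn through the vessel, which strips the endothelium and stretches the muscular wall. Cy3-labelled cRNA made from total RNA of each vessel was read on a one-colour Agilent rat array, 1 array per group. There were thus no replicates, and the difference between any 2 arrays includes the spread between animals, which these data cannot measure.

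After such an injury the wall passes through several stages. Platelets and leukocytes settle on the bared surface, smooth muscle cells lose contractile proteins, divide and migrate, and a neointima of muscle cells and matrix then forms and matures. The adventitia, the outer coat, holds fibroblasts, fat, small vessels and sympathetic nerve fibres, whose transmitters constrict the artery. Day 7 falls in the phase of division and migration, and day 21 in that of an established neointima. In RNA of a whole vessel, fewer cells of a type and less RNA per cell cannot be told apart.

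Signals are given as the processed, background-subtracted intensity of each array, which is not normalized between arrays. The 75th percentile of signal over the 6698 shared probes was 295 for the uninjured artery, 493 for day 7 and 844.5 for day 21, and ratios are differences of log2 signal after that percentile was subtracted. A raw signal must therefore be above its uninjured value by 0.74 (log2) at day 7 and by 1.52 at day 21 for a ratio of 0. Well above background were 59.8% of the probes for the uninjured artery, 76.5% for day 7 and 66.7% for day 21. Design and scan were shared by the uninjured and day 21 arrays, whereas day 7 came from another array design, read with a later release of the scanner software, so time and array design cannot be told apart in any value that involves day 7. Smooth muscle genes, which mark the labelled tissue, were present: 13 of 28 contractile genes were measured on all 3 arrays, 10 of them at least 2-fold lower at day 7 and 12 at day 21.

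At day 7, 18.9% of all genes passed 2-fold upward and 13.8% downward, and at day 21 the shares were 10.2% and 13.4%. Counts of 2-fold changes within gene lists are to be set against these shares. Both ratios use the same uninjured array. The 66 genes higher at day 7 and lower at day 21 had log2 ratios of 1.04 to 3.06 at day 7 (median 1.31) and of -2.37 to -1.01 at day 21 (median -1.28). The 10 genes of the other kind had ratios of -1.81 to -1.001 at day 7 (median -1.36) and of 1.05 to 2.46 at day 21 (median 1.29). The corresponding medians over all 5166 genes were 0.09 and -0.17. Values after ± are the SD that replicate spots give for a ratio, from spots of equal brightness or from a probe's own spots. For a probe with several spots they use the SD of the mean, the SD of a spot divided by the square root of the number of spots. They are technical, cover no difference between animals, and in the members ranged from 0.066 to 1.07 at day 7 and from 0.054 to 0.70 at day 21. By that measure 4 of the 76 genes were past the threshold by more than 2 SD in both ratios: Clec1b, Npy and Gal in the first set and Gcgr in the second. For Gal this rests on averaging 10 spots per array, since the SD of a single spot at day 21 was 0.51.

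**Figure D1:**
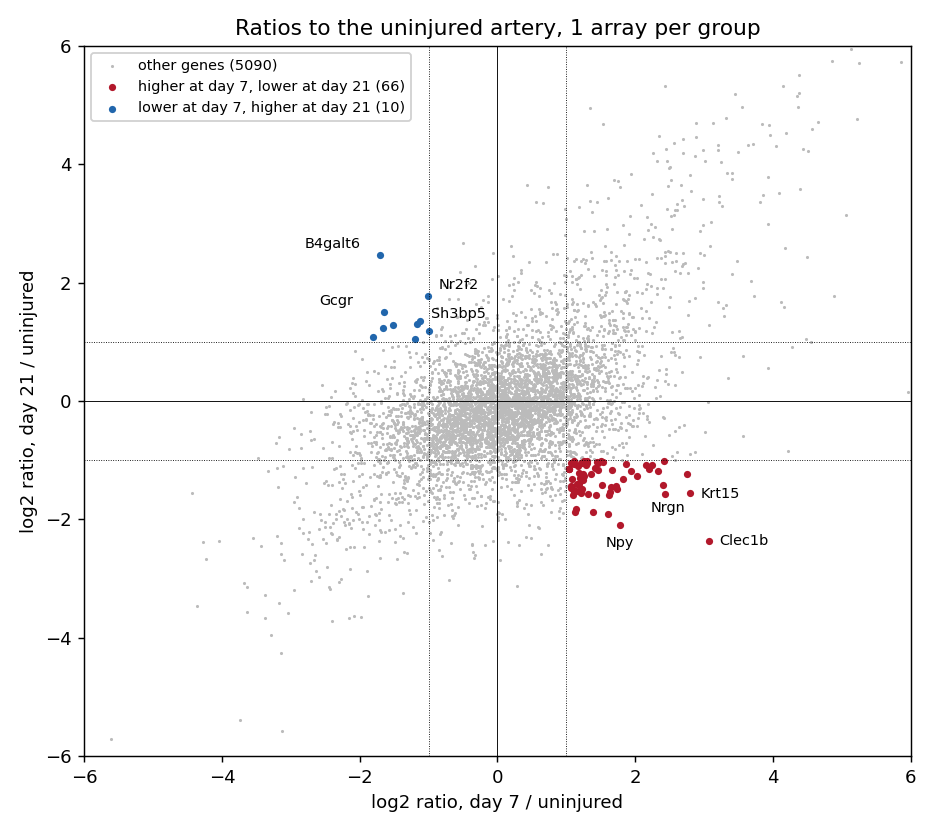
Log2 ratio to the uninjured artery at day 7 (horizontal) and at day 21 (vertical), 1 point per gene and 1 array per group, with dotted lines at the 2-fold threshold. The 66 genes higher at day 7 and lower at day 21 lie at the lower right (red), with Clec1b and Npy farthest down, and the 10 of the other kind at the upper left (blue), with B4galt6 highest; genes beyond 6 on either axis are not drawn.

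The start regions of 5 genes are shown because their signals carry the description below. They come from RefSeq on the GRCr8 assembly, run 5′ to 3′ on the gene's strand from 250 bases before to 50 bases after the annotated start, and print in capitals each match to the motifs searched. The regions are chr4:80211861-80212160 on the plus strand for Npy, chr1:210084523-210084822 on the minus strand for Gal, chr4:164533859-164534158 on the plus strand for Clec1b, chr8:45452368-45452667 on the minus strand for Nrgn and chr9:98247104-98247403 on the plus strand for Ackr3.
Npy: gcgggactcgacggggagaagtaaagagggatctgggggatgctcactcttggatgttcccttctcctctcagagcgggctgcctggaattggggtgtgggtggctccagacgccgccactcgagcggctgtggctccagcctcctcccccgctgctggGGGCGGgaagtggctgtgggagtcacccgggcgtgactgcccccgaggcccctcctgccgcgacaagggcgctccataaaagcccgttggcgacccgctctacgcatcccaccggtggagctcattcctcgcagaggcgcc
Gal: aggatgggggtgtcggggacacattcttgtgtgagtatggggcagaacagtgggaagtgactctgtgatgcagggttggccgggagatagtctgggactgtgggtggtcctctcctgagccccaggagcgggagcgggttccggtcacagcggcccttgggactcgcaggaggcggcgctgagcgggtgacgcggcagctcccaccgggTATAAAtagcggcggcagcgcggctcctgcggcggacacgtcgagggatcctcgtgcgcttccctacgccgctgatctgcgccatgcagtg
Clec1b: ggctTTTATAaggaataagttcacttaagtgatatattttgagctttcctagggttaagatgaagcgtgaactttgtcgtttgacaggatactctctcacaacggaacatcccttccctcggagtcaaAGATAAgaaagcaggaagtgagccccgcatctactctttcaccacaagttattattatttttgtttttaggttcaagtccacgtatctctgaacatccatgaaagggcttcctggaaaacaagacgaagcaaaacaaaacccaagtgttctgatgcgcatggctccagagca
Nrgn: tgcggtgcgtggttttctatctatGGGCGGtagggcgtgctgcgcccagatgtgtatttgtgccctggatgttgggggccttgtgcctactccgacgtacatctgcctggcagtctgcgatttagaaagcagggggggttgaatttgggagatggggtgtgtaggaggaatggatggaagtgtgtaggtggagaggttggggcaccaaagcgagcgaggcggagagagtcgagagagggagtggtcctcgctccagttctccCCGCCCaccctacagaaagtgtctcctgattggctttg
Ackr3: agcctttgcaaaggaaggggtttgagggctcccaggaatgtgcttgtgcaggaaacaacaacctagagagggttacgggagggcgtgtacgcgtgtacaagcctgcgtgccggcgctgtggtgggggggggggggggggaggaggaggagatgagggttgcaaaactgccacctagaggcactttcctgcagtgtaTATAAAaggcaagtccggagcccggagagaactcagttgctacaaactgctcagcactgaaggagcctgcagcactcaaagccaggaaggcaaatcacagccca

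The motifs were searched on both strands, and no match overlapped another in these 5 regions. The TATA box, TATAAA, lay 41 bases before the start in Gal and 54 bases before it in Ackr3. The GC box, GGGCGG, lay 91 bases before the start in Npy. Nrgn held it 226 bases before the start and again on the opposite strand 13 bases after it. Clec1b, whose start region had a GC content of 41.7%, held a TATA box on the opposite strand 246 bases before the start. It also held the GATA motif, AGATAA, 122 bases before the start. The cyclic AMP response element, TGACGTCA, and the E-box, CACGTG, were in none of the 5. The set of genes higher at day 7 and lower at day 21 had entries for 46 genes, with 47 start regions. A TATA box was found in 10.6% of these against 14.2% of all 33469 regions, a GC box in 34.0% against 33.1%, a GATA motif in 8.51% against 11.6%, an E-box in 2.13% against 6.42%, and a cyclic AMP response element in 2.13% against 1.83%. The other set had 8 start regions of 7 genes, of which 2 held a TATA box, 4 a GC box and 1 an E-box, while 0 held a GATA motif or a cyclic AMP response element. A match describes letters in this window and is no evidence that a factor binds.

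The neuropeptide genes Npy and Gal, both on the sympathetic neuron list, were in the set with the early high value. Npy encodes neuropeptide Y, which sympathetic endings release with noradrenaline and which constricts arteries. Its signal was 4293 on the uninjured array, 24583 at day 7 and 2873 at day 21. The day 7 value was the highest of the 3 by far, and the day 21 signal was below the uninjured one even before the brighter array was allowed for. Each array carried 10 spots of the probe, which read from 3838 to 4973 on the uninjured array, from 21349 to 30218 at day 7 and from 2480 to 3411 at day 21, so the spots of the 3 arrays did not overlap. After scaling, Npy was 3.43-fold higher than uninjured at day 7 (log2 ratio 1.78 ± 0.066) and 4.28-fold lower at day 21 (-2.10 ± 0.054), a 14.7-fold difference between the injured arrays.

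Gal encodes galanin, a peptide of sensory and sympathetic neurons that is raised in injured nerves. Its signals were 87.8 (uninjured), 459 (day 7) and 91.4 (day 21). Only the day 7 spots, at 408 to 498, stood apart, since the 10 uninjured spots (70.2 to 103) and the 10 day 21 spots (52.5 to 137) overlapped before scaling. The log2 ratios were 1.65 ± 0.071 at day 7 and -1.46 ± 0.17 at day 21, a 3.13-fold higher and a 2.75-fold lower scaled level. The day 21 ratio of Gal is thus a nearly equal raw signal on an array whose percentile was higher by 1.52 on the log2 scale. Another probe of Gal, found on the day 7 array only, read 70.2 there, where the member probe read 459.

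These were the only 2 of 28 listed sympathetic neuron genes whose shared probes were well above background on all 3 arrays. On each array's own design, 17 of 27 genes with a probe were well above background in the uninjured artery, 21 at day 7 and 19 at day 21. These counts rose and fell with the arrays, where 59.8%, 76.5% and 66.7% of all probes were well above background. On the common design of the uninjured and day 21 arrays, 17 of the listed genes had a ratio, of which 15 were below 0, 7 were at least 2-fold lower and 0 were at least 2-fold higher, with a median of -0.72. Over all 9438 named genes with a ratio on that design, 65.4% were below 0, with a median of -0.27. Of all 9438, 16% passed 2-fold downward and 8.35% upward. Among the enzymes that make noradrenaline, Th (tyrosine hydroxylase) had signals of 13.0, 114 and 26.9 and Dbh (dopamine beta-hydroxylase) of 10.72, 24.7 and 35.2 in the same order. Their day 7 signals come from the other array design, so no day 7 ratio is given. The day 21 ratios were -0.47 for Th and 0.20 for Dbh, neither of which reached 2-fold. Other listed genes went either way at day 7. Calca (468, 7.02 and 641), Phox2a (43.1, 6.78 and 121), Nefh, Chga and Syt1 were well above background on both other arrays but not at day 7. Chgb, Nefm, Slc18a2, Stmn2, Sst, Tac1 and Calcb were so at day 7 only. The summed scaled level of Npy and Gal was 14.8, 50.8 and 3.51 times the arrays' 75th percentile. Scaling each array on its own design brought the day 7 ratio of Npy to 0.44 and that of Gal to 0.31, below the threshold.

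Of 36 listed Schwann cell and nerve genes, 13 were counted on all 3 arrays and 0 were in the set with Npy and Gal, but 2 more that met its thresholds are among the genes the rule leaves out. Of the 13, 7 passed 2-fold upward and 2 downward at day 7, and 2 upward and 2 downward at day 21. Sox10, the transcription factor that defines Schwann cells, had signals of 65.8, 2047 and 105, with log2 ratios of 4.22 ± 0.24 at day 7 and -0.84 ± 0.32 at day 21. It was outside the set because its day 21 ratio fell short of the threshold. On the common design of the uninjured and day 21 arrays, 26 of the listed genes had a ratio, of which 24 were below 0, with a median of -0.71. By 2-fold or more, 8 of the 26 were lower and 2 were higher. Gjb1, a connexin of myelinating Schwann cells that was not on the list, was a member and is given below.

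Clec1b had the largest pair of opposite ratios of the 76 genes. It encodes CLEC-2, a receptor of platelets for podoplanin. The signals were 44.3 on the uninjured, 619 on the day 7 and 24.5 on the day 21 array. Day 7 was far above both others, and day 21 was below uninjured before and after scaling. The scaled level was 8.36-fold higher at day 7 (3.06 ± 0.23) and 5.18-fold lower at day 21 (-2.37 ± 0.50), so the injured arrays differed 43.3-fold. Treml1, another receptor of platelets, stored in their granules, had signals of 45.4, 220 and 63.9 and ratios of 1.54 ± 0.22 and -1.02 ± 0.31. In the authors' deposited table the day 7 ratio of Treml1 had the other sign, at -0.61. Nrgn encodes neurogranin, a calmodulin-binding protein known from neurons whose transcript is also found in platelets. It read 196, 1772 and 189, a raw signal that was nearly equal on the uninjured and day 21 arrays, with ratios of 2.44 ± 0.21 and -1.57 ± 0.40.

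A list of 19 platelet genes, Nrgn among them, was written after these values were seen, and 9 of its genes were measured on all 3 arrays. At day 7, 7 of the 9 were at least 2-fold higher and 1 was lower. At day 21, 1 was higher and 3 were lower, the 3 being Clec1b, Treml1 and Nrgn. The list's median ratio was 1.54 at day 7 and -0.44 at day 21. Its other genes did not all share the late low value. Pf4, platelet factor 4, read 2261, 10814 and 11896, with ratios of 1.52 ± 0.090 and 0.88 ± 0.14, and P2ry12, an ADP receptor that microglia also carry, had ratios of 2.09 ± 0.23 and 1.57 ± 0.41. Gp9, a subunit of the von Willebrand factor receptor, had ratios of 2.63 ± 0.22 and -0.44 ± 0.32. Gp1bb, another subunit, was read on each array's own design at 875, 12087 and 894, with a day 21 ratio of -1.49 on the common design. Gp1ba, also on the list, was read in the same way at 32.7, 24.2 and 62.0, with a day 21 ratio of -0.59. On that design 11 of the listed genes had a day 21 ratio, with a median of -0.59, and 9 were below 0. Of the 11, 3 were at least 2-fold lower and 1 was higher, against 16% and 8.35% of all genes. The summed scaled level of the 9 genes measured on all 3 arrays was 8.96, 28.3 and 14.9 times the arrays' 75th percentile in the uninjured, day 7 and day 21 arteries. The part that platelets or blood in the vessel had in the ratios of Clec1b, Treml1 and Nrgn was not tested.

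Cd248, Cpxm1, Lamc3 and Tspan15 were also in the first set. Cd248, the membrane glycoprotein endosialin of pericytes and activated fibroblasts, read 929, 3642 and 952. Only the day 7 signal stood apart, and the ratios were 1.23 ± 0.14 at day 7 and -1.48 ± 0.20 at day 21. Cpxm1, a secreted protein of the carboxypeptidase family, read 66.4, 339 and 63.4, with a day 21 signal slightly under the uninjured one and ratios of 1.61 ± 0.23 and -1.58 ± 0.31. Lamc3, the laminin gamma-3 chain of basement membranes, read 17.8, 65.4 and 14.4, with ratios of 1.14 ± 0.41 and -1.83 ± 0.58. Another probe of Lamc3 gave only -0.39 at day 21. Tspan15, a tetraspanin that binds the protease ADAM10, read 66.9, 276 and 93.1, with ratios of 1.30 ± 0.23 and -1.04 ± 0.30. None of the 58 listed matrix glycoproteins, proteoglycans and collagens was in either set, although 29 of them were measured, 10 of these at least 2-fold higher at day 7 and 6 lower at day 21. The fibroblast list had 7 measured genes and 0 members. Scaling on each array's own design brought the day 7 ratio of Cd248 to -0.11, and it was 0.77 in the authors' deposited table, where that of Cpxm1 was 0.72.

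Grm2, Sncg, Tenm4 and Pea15 were members that no list held. Grm2, a metabotropic glutamate receptor that inhibits transmitter release, read 449, 3552 and 608, with ratios of 2.24 ± 0.16 and -1.08 ± 0.25. Sncg, gamma-synuclein, a soluble protein of peripheral neurons that fat cells also make, read 439, 1530 and 610, with ratios of 1.06 ± 0.16 and -1.04 ± 0.25. Both had higher raw signals at day 21 than in the uninjured artery, so their late ratios rest on the scaling, and on each array's own design the day 7 ratio of Sncg was -0.28. Tenm4, a teneurin that guides axons, read 10.3, 60.7 and 11.9, with ratios of 1.82 ± 0.57 and -1.31 ± 0.70. Pea15, an adaptor with a death effector domain that is abundant in astrocytes, read 26.9, 237 and 28.7, with ratios of 2.40 ± 0.22 and -1.42 ± 0.47. The members Cd248, Lamc3, Tspan15, Treml1, Grm2, Sncg and Actl7a, and those given below with the olfactory receptors, fell outside the rule for named genes and were picked after their values were seen.

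Of the skeletal and cardiac muscle list, 7 of 27 genes were measured and 2 were members, Myh3 and Myl11. Myh3, the embryonic myosin heavy chain of developing and regenerating skeletal muscle, read 16.9, 86.2 and 12.9. Its day 7 signal was the highest, and its ratios were 1.61 ± 0.38 and -1.91 ± 0.59. Its day 7 ratio was -0.0068 in the authors' deposited table. Myl11, the regulatory light chain of fast muscle, listed under its older symbol Mylpf, read 18.5, 156 and 23.3, with ratios of 2.34 ± 0.30 and -1.18 ± 0.54. Of the other listed genes, Acta1, skeletal alpha-actin, had a ratio of -2.33 on both days, and Tnni2, a fast troponin, had ratios of 0.10 and -0.06. In all, 2 of the 7 were at least 2-fold higher and 1 lower at day 7, and 0 were higher and 4 lower at day 21. Over all genes the shares higher and lower were 18.9% and 13.8% at day 7 and 10.2% and 13.4% at day 21. On the common design, 14 listed genes had a day 21 ratio, of which 13 were below 0, with a median of -1.39. By 2-fold or more, 8 of the 14 were lower and 0 were higher. The summed scaled level of the 7 genes was 2.55, 2.64 and 1.70 times the arrays' 75th percentile, and the part that muscle beside the artery had in the ratios of Myh3 and Myl11 was not tested. The member Krt15, a keratin of basal epithelial cells that no list held, read 11.2, 130 and 10.97, with ratios of 2.80 ± 0.50 and -1.54 ± 0.70.

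Other members were dim on the uninjured and day 21 arrays. B3galnt2, a glycosyltransferase that extends the sugar chain of dystroglycan, read 12.3, 63.9 and 12.1, with ratios of 1.64 ± 0.56 and -1.54 ± 0.70, and its day 7 ratio in the authors' deposited table was -0.95. Tssk2, a kinase of developing sperm, read 12.02, 57.3 and 12.9, with ratios of 1.51 ± 0.59 and -1.42 ± 0.70. Txndc2, a sperm thioredoxin, read 77.2 at day 7 and 13.8 at day 21, with ratios of 1.39 ± 0.38 and -1.87 ± 0.59. Tex44 read 11.3, 61.8 and 11.9, and C19h4orf51 read 15.3, 85.3 and 15.6. All 5 were between 7 and 10 times as high, after scaling, at day 7 as at day 21, with raw signals under 20 on the other arrays. Actl7a, an actin-related protein of the sperm head, was brighter at 105, 713 and 125, with ratios of 2.03 ± 0.23 and -1.26 ± 0.34.

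**Figure D2:**
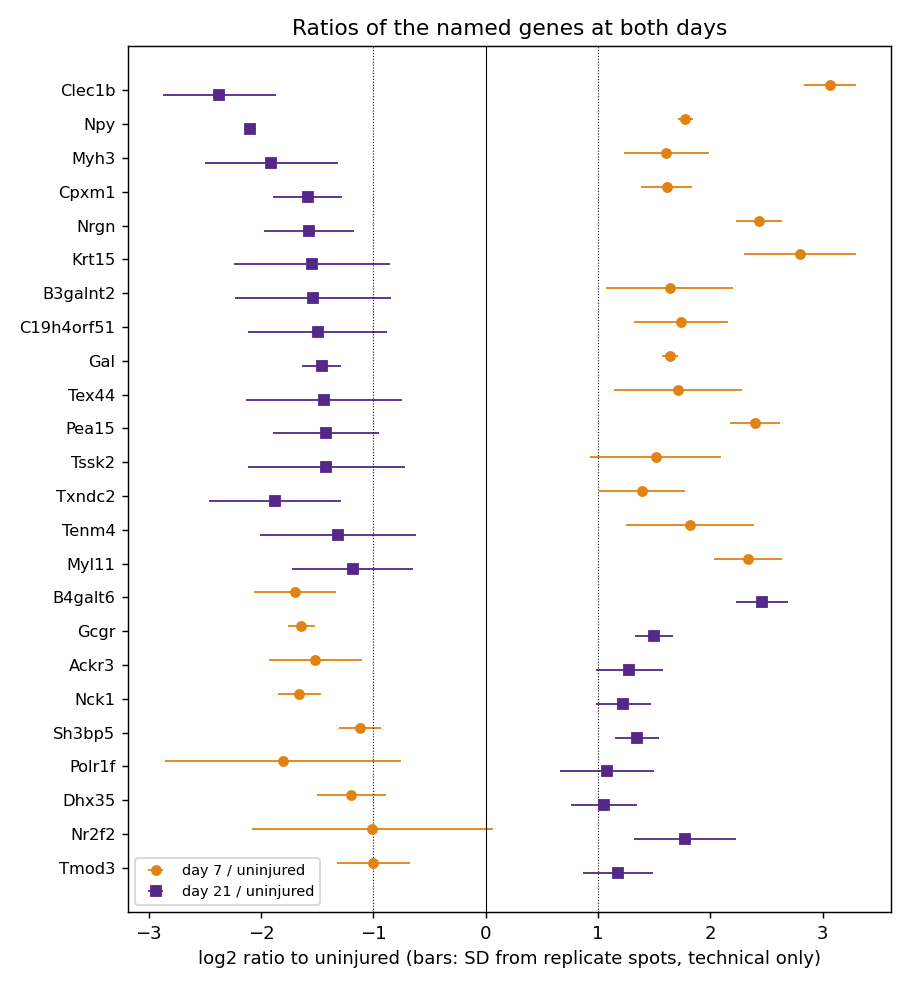
Log2 ratio to the uninjured artery at day 7 (circles) and day 21 (squares) for genes named by the rule, 1 array per group. Bars are the SD from replicate spots, which is technical only; they are shortest for Npy, with 10 spots per array, and at day 7 longest for Nr2f2 and Polr1f, whose signals there were under 20.

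Olfactory receptor genes supplied 4 members out of 103 measured (3.88%), against 1.28% of all genes. The share was 5.29% of genes with an uninjured signal under 20, which 35 of the 103 had, and 0.761% of genes from 20 to 100. Among the members, Or1f34 was in the first class and Or13n4b, Or8w1b and Or9s27 were in the second. Or13n4b read 28.3, 317 and 34.5 (ratios 2.75 and -1.23), and Or8w1b read 25.8, 136 and 33.1 (1.66 and -1.16). Or9s27 read 50.9, 179 and 53.7 (1.07 and -1.44), and Or1f34 read 12.9, 45.0 and 13.3 (1.07 and -1.47). They belong to a very large family with near-identical copies, so their identity is uncertain, and cross-hybridisation was not tested. The remaining members of this set kept to ratios within the ranges given above. They include Hmga2, a chromatin protein of growing tissue (1.15 and -1.40), Gjb1, the connexin of myelinating Schwann cells and liver (1.11 and -1.06), Ngb, neuroglobin (1.18 and -1.40), Msi1, an RNA-binding protein of progenitor cells (1.20 and -1.31), Fcer2, the low-affinity IgE receptor (1.09 and -1.58), and Gpr37, an orphan receptor of glia (1.21 and -1.04). Others included Fam32al1, Ugt2a1, Desi1, Tlcd4, Tex13c, Kcnip3, Inpp4a, Mrpl21, Brpf3, Tmc5, Grap2, Pcdh9, Zbtb12, Hgfac, Tekt4, Trim42, Farp1, Myrip, Clec4m, Txnrd3, Fxyd3, Tsacc, Lad1, Spata20, Spata21, Rit2 and Gpr85.

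The genes higher at day 7 and lower at day 21 were mostly dim. The uninjured signal was under 20 in 45 of the 66, against 850 of all 5166 genes (16.5%), where the lowest signal called well above background on the uninjured array was 8.31. A signal of at least 50 on all 3 arrays was found in 10 of the 66, against 58% of all genes. These 10 were Npy, Cpxm1, Nrgn, Gal, Actl7a, Cd248, Grm2, Or9s27, Sncg and Tspan15. Among genes with an uninjured signal under 20, 5.29% were in this set, and the class as a whole had a median day 7 ratio of 0.83. From 20 to 100 the share was 0.761% with a class median of 0.21, and at 100 or more it was 0.256% with a class median of -0.23. The opposite set took 0.118%, 0.203% and 0.213% of the same classes. The part that the low signals had in the ratios was not tested. The raw day 7 signal was above uninjured in all 66, which the rule and the scaling fix in advance. The raw day 21 signal was above the uninjured one in 50 of the 66 and below it in 16. The median raw log2 difference at day 21 was 0.24. For most of them the late low value therefore means a signal that did not keep up with the brighter day 21 array.

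**Figure D3:**
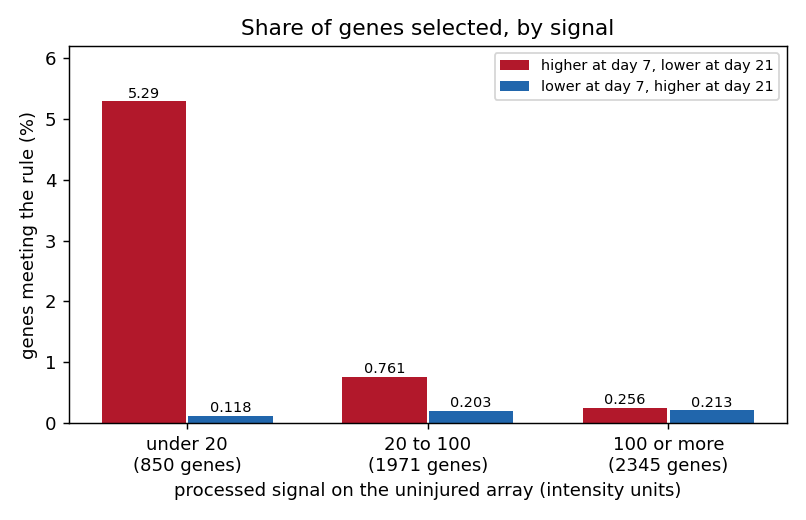
Share of measured genes (%) that met the rule, by processed signal on the uninjured array in intensity units, for both directions. The share higher at day 7 and lower at day 21 falls from 5.29% of the 850 dimmest genes to 0.256% of the 2345 brightest, while the opposite share stays between 0.118% and 0.213%.

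The 10 genes lower at day 7 and higher at day 21 were brighter, with 7 of 10 at a signal of at least 50 on all 3 arrays. In all 10 the raw signal was below uninjured at day 7 and above it at day 21, which the rule and the scaling fix in advance. B4galt6, an enzyme that makes lactosylceramide, the parent of most glycosphingolipids, had the largest late value. Its signal was 118 in the uninjured artery, 60.7 at day 7 and 1855 at day 21. Day 21 stood far above both other arrays, with a ratio of 2.46 ± 0.23 (5.501-fold higher), while day 7 was 3.25-fold lower (-1.70 ± 0.37).

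Gcgr, Ackr3, Nck1 and Sh3bp5 were in the same set. Gcgr, the glucagon receptor, a G protein-coupled receptor known mainly from liver, read 406, 218 and 3293, with ratios of -1.64 ± 0.12 and 1.502 ± 0.17. Ackr3, an atypical receptor that takes up the chemokine CXCL12 and lets it be degraded, read 95.5, 55.8 and 664, with ratios of -1.52 ± 0.42 and 1.28 ± 0.30. Nck1, an adaptor that links tyrosine kinases to actin assembly, read 160, 84.7 and 1073, with ratios of -1.66 ± 0.19 and 1.23 ± 0.24. Sh3bp5, a JNK-binding protein of mitochondria, read 241, 185 and 1756, with ratios of -1.12 ± 0.18 and 1.35 ± 0.20. In each of the 4 the day 7 signal was the lowest and the day 21 signal the highest, as the rule requires. The list of 45 chemokine, cytokine and receptor genes had 17 measured and 0 members in either set.

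Nr2f2, Tmod3, Dhx35 and Polr1f were also in this set. Nr2f2, the nuclear receptor COUP-TFII that sets venous identity in endothelium, read 17.7, 14.7 and 173, with ratios of -1.01 ± 1.1 and 1.77 ± 0.46. Its day 7 ratio was smaller than its own technical SD, so only the late value stood clear. Tmod3, a tropomodulin that caps the slow end of actin filaments, read 90.8, 75.8 and 588, with ratios of -1.001 ± 0.32 and 1.18 ± 0.31. Dhx35, an RNA helicase, read 110, 80.2 and 653 (-1.20 ± 0.31 and 1.05 ± 0.29), and Polr1f, a subunit of RNA polymerase I, which transcribes ribosomal RNA, read 34.1, 16.3 and 206 (-1.81 ± 1.1 and 1.08 ± 0.42). Another probe of Polr1f gave 0.46 at day 21.

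**Figure D4:**
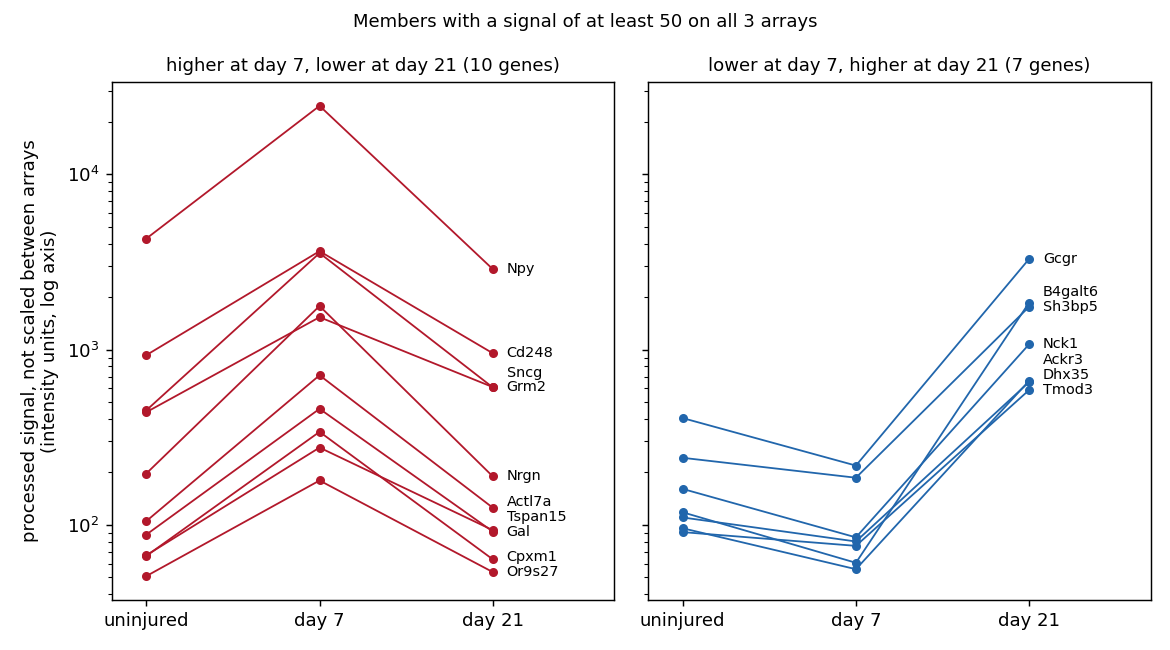
Processed signal in intensity units (log axis, not scaled between arrays) on the uninjured, day 7 and day 21 arrays for the 17 members with a signal of at least 50 on all 3. The 10 genes at the left peak at day 7 and return near their uninjured signal or below it, while the 7 at the right are lowest at day 7 and highest at day 21; lines compare arrays within a gene, not genes with one another.

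Of the members reported here, the 29 gene lists covering cell types and pathways held Npy and Gal (sympathetic neuron) and Myh3 and Myl11 (muscle). The macrophage list had 13 measured genes, 12 of them at least 2-fold higher on each injured array, and the endothelial list had 8, of which 7 were higher at day 7 and 8 at day 21. In the mitosis list, 8 of 8 were higher at day 7 and 5 at day 21. None of the macrophage, endothelial and mitosis lists had a gene in either set.

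Other probes of the member genes, which the rule did not use, gave a day 21 value from the same RNA. On the design common to the uninjured and day 21 arrays, 11 such probes of 11 genes were well above background on both. All 11 had the day 21 sign of their gene's member probe, and 4 passed the 2-fold threshold: Myh3 (-1.76), Tenm4 (-1.68), Vwa7 (-1.68) and Tmod3 (1.30). Of all 9438 genes with a ratio on that design, 65.4% were below 0 as well. By 2-fold, 16% were lower and 8.35% higher. The rest of the 11 probes were under the threshold, with smaller ratios than their member probes: Myrip (-0.71), Treml1 (-0.70), B3galnt2 (-0.69), Fcer2 (-0.64), Lamc3 (-0.39), Sh3bp5 (0.83) and Polr1f (0.46). The other probe of Fcer2 read 166 and 305 on the uninjured and day 21 arrays, where its member probe read 14.8 and 14.2. Of 8 other probes on the day 7 array only, that of Lamc3, at 3.01, was not well above background. The rest often differed from the member probe's day 7 signal, given in brackets. They read 9861 (24583) for Npy, 70.2 (459) for Gal, 27.0 (86.2) for Myh3 and 16.6 (42.1) for Zbtb12. Those of Fxyd3, Vwa7 and Farp1 read 49.9 (112), 47.1 (54.1) and 2629 (47.8). Being on 1 array only, these probes give no ratio. For Sh3bp5 the other probe was on all 3 arrays and gave -0.50 at day 7. Some probes were well above background on only 1 of these arrays. Those of Tlcd4, Rit2, Inpp4a, B4galt6 and Dhx35 gave no bound on the day 21 ratio, whereas 4 others gave one. Of these, 2 of Pcdh9 were, after scaling, at least 2.73-fold and 2.96-fold brighter in the uninjured artery and 1 of Tspan15 at least 2.51-fold. Their member probes were also higher in the uninjured artery after scaling. In raw signal those member probes were lower there than at day 21, at 15.3 and 18.6 for Pcdh9 and 66.9 and 93.1 for Tspan15. The other probe of Gpr85 went the other way after scaling, at least 1.28-fold brighter at day 21, whereas its member probe had a ratio of -1.15. Such probes read the same extracts and are no replicates.

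At the threshold, the members just inside it in the first set were Mtmr7, Vwa7, Cyp2c22, Cwh43 and Csap1, with day 21 ratios from -1.02 to -1.01. The genes just outside were Wnt10a, Rnf10 and Sstr5, with day 21 ratios of -0.999, -0.996 and -0.994, and Lgals2 and Tmeff1, with day 7 ratios of 0.995 and 0.986. Rnf10 was bright at 892, 5214 and 1281, with a day 7 ratio of 1.81. In the second set the genes just inside were Tmod3, Nr2f2, Dhx35, Polr1f and Sh3bp5, and just outside were Sertad2, Pip4p2, Slc39a8, Usp40 and Tmpo, with smaller ratios of 0.995, 0.939, 0.938, 0.909 and 0.897 in size. No gap separated the members from the genes next to them.

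Most of the first set did not meet the rule under other ways of putting the arrays on one scale. With quantile normalization 14 of the 66 still met the rule, with cyclic loess 11, and with a normexp background correction, which raises dim signals by an offset, 9. With scaling on the whole design of each array, 5 of the 66 did, since the all-gene median day 7 ratio then moved from 0.09 to -1.24. Under these 4 settings the second set kept 8, 9, 2 and 10 of its 10 genes. The authors' deposited table, which holds log2 values of the same arrays, had the member probe of 24 of the 66 genes, of which 21 had the same pair of signs and 9 passed both thresholds. For the other set it held the member probe of 8 of the 10 genes and another probe of Sh3bp5 (-2.25 and 1.25), all 9 past both thresholds, on a scale whose all-gene median day 7 ratio was -0.73. Over 7 such settings, Clec1b, Nrgn, B4galt6 and Gcgr met the rule in every one, and Npy in all but the scaling on each array's own design. Of the 66, 49 met it in 2 settings or fewer, and of the 10, 2 did.

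**Figure D5:**
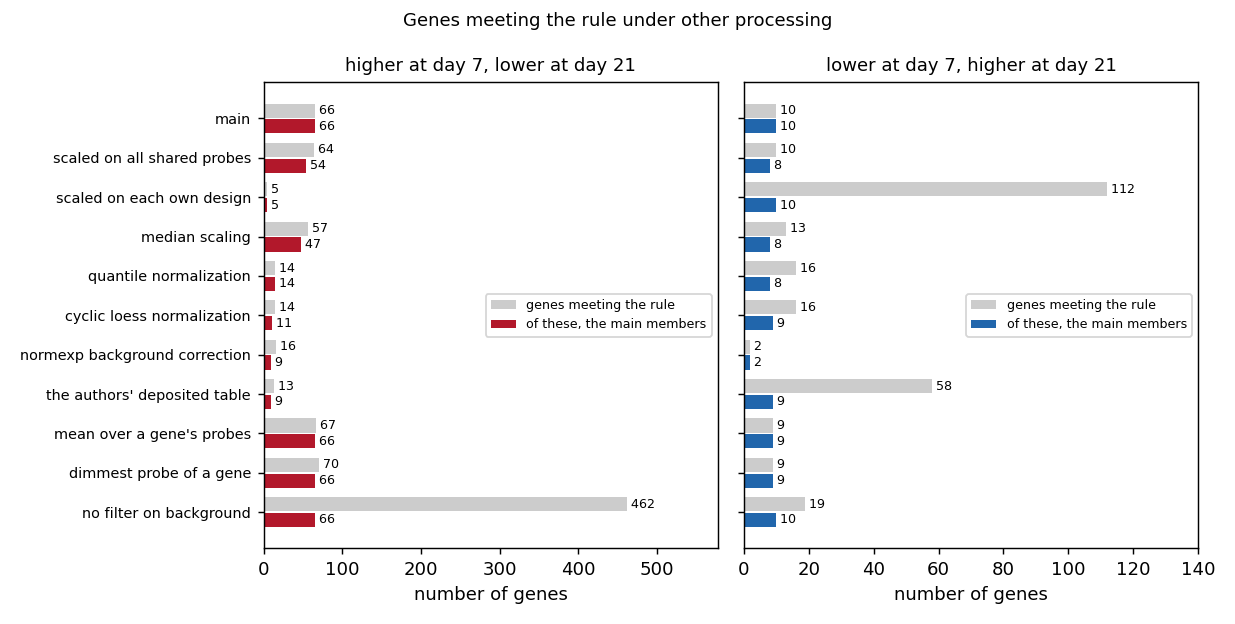
Number of genes that met the rule under each processing setting (grey) and how many of these were among the members described here (red or blue), for both directions. The first set falls from 66 to between 5 and 16 under 5 of the settings, while the second rises to 112 when each array is scaled on its own design and falls to 2 with normexp; the horizontal scales of the panels differ.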

How the data were processed

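Processed signal intensity per spot was deposited by the authors as Agilent Feature Extraction output. Per the file headers, day 7 was read with release 11.0.1.1 and both other arrays with 10.7.3.1, the one that the submitters' processing notes give. The authors' deposited table holds log2 values, whose normalization and centring are not given in the sources used here. It was used as an alternative.

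Control and flagged spots were left out (0.242%, 1.46% and 0.274% of gene spots), and spots of a probe were averaged on the log2 scale. Of 10602 probes on all 3 arrays, 10583 were unflagged and 6698 well above background in most of their spots (over 50%) on each array. Over these, the 75th percentile of log2 signal was subtracted array by array. Accessions matched to RefSeq symbols (GRCr8, for names) gave 1 symbol for 5275 probes (78.8%) and 5172 genes, each read by its brightest probe. List symbols were updated through RefSeq synonyms that name 1 gene. In all, 6 genes were left out: placeholders and the 4 genes Fxyd6, Ngfr, Sostdc1 and Akr1c15, all of which met the thresholds. No test was possible with 1 array per group. The technical SD comes from replicate spots, interpolated over signal, or from a probe's own spots where it had at least 5. It was divided by the square root of the number of spots averaged.

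The members and gene lists were chosen with earlier results of these data known. Named genes are the 15 members per direction with the largest smaller ratio, list members, and the 5 genes nearest each side of the threshold. The plan named a mean signal for normexp (offset 50). The files held the median signal, which was used. Some genes that the rule names are not reported here. The selection was tested on simulated data. Tools were Python 3.11.15, pandas 2.3.3, numpy 2.4.6, R 4.3.3 and limma 3.58.1.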

Additional observations from a re-analysis of the deposited data

Results flagged for a closer look

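The 66 genes higher at day 7 and lower at day 21, and the 10 genes lower at day 7 and higher at day 21, are listed here because the single array of each injured group moved away from the uninjured array in opposite directions. That opposition is fixed by how the genes were chosen, and the difference between the days was not tested.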

How the results depend on the processing

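No paired analysis was possible because each group had 1 array, and the groups share only the number 1. The first set held 66 genes, the second 10, and 26 genes were named by the rule. These numbers became 5, 112 and 14 under scaling on whole designs (each array's own probes). Quantile normalization gave 14, 16 and 17, cyclic loess 14, 16 and 16, and normexp background correction 16, 2 and 7. The authors' deposited table gave 13 and 58 of 4103 genes, with 14 of 17 named genes. Without the background filter there were 462 and 19 genes, at a log2 threshold of 1.5 there were 7 and 2, and at a 1.5-fold threshold 258 and 65. A signal of at least 50 on all 3 arrays, chosen after seeing the data, left 10 and 7. The other percentile set (64, 10 and 24), median scaling (57, 13 and 24), the mean over a gene's probes (67, 9 and 25), the dimmest probe (70, 9 and 25), and, chosen after seeing the data, every spot (66 and 9) or at least 1 spot (66 and 11) well above background stayed within 1.5 times. Scaled on each array's own design, the day 7 ratio changed sign in 34 of the 76 members, among the genes named by the rule or nearest the threshold in Mtmr7 (-0.23), Vwa7 (-0.082), and Cwh43 (-0.043), and in the non-members Lgals2 (-0.34) and Tmeff1 (-0.35). In the authors' deposited table it did in 3 of 33 members, Myh3 (-0.0068), B3galnt2 (-0.95) and Treml1 (-0.61), and in the non-members Slc39a8 (0.51) and Usp40 (0.31). With normexp 6 members changed sign at day 7 and with quantile normalization 1 at day 21. Own-design scaling moved the day 7 median of all genes to -1.24, and normexp the day 21 median to -0.45. The cause of the other shifts was not tested. Under own-design scaling 175 genes were at least 2-fold higher and 3100 lower at day 7, against 976 and 714. The median technical SD of a spot was 0.131 (uninjured), 0.102 (day 7) and 0.134 (day 21), and in the dimmest probes 0.48, 1.03 and 0.50, which limits ratios of dim genes.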
